A study of Mus musculus with 8 samples.

Results

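The genes described here are *Cpt1a*, *Slc25a20*, *Cpt2*, *Acadvl*, *Acadl*, *Acadm*, *Hadha*, *Hadhb* and *Etfa*, 9 of the 22520 rows of the expression table, chosen by symbol as enzymes and carriers of mitochondrial fatty acid oxidation. All 9 passed the filter on low values. CD8+ T cells were taken from mouse spleen by magnetic negative selection and stimulated for 6 days with antibodies against CD3 and CD28 together with IL-2, a culture made to bring on exhaustion. From day 3, one group of cultures received 40 µM DADA (diisopropylamine dichloroacetate, an inhibitor of the pyruvate dehydrogenase kinases) and the control group received an equal volume of DMSO. Cells of both groups were harvested on day 6, and 4 RNA-seq libraries were made per group. The labels call the groups control and model under genotype, but the sources used here describe no genetic change. For this kind of culture the paper names wild-type mice as the source of the spleens. The sources do not tie a strain or an age to these libraries. The series names the 4 libraries of a group biological replicates, and nothing used here says whether these came from separate animals, so p-values measure the spread between these cultures.

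Long-chain fatty acids enter the mitochondrial matrix through the carnitine shuttle. CPT1A at the outer membrane, which malonyl-CoA inhibits, joins the acyl group to carnitine, the translocase encoded by *Slc25a20* carries the acylcarnitine across the inner membrane, and CPT2 returns the acyl group to coenzyme A. In the matrix, acyl-CoA dehydrogenases of different chain-length preference (ACADVL, ACADL, ACADM) start each turn of beta-oxidation and pass electrons to the electron transfer flavoprotein, made of ETFA and ETFB, which ETFDH oxidizes to feed ubiquinone. The mitochondrial trifunctional protein, built from HADHA (hydratase and dehydrogenase) and HADHB (thiolase), completes the turn for long chains. Memory CD8+ T cells are known for their use of this pathway, and activated effector cells for their use of glycolysis.

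The upstream sequences of *Cpt1a*, *Acadl* and *Acadvl*, the 3 of these genes with the largest rise, and the stretch between *Hadha* and *Hadhb*, which are transcribed away from each other, are shown as RefSeq sequence of the build GRCm38.p6, 5′ to 3′ on the strand of the gene, with bases that GENCODE M21 places in an exon left out. Capitals mark the nuclear receptor element AGGTCA or its reverse complement. *Cpt1a* lies at chr19:3323051-3323284 on the plus strand, ending 16 bases before the start site. *Acadl* lies at chr1:66863310-66863559 on the minus strand and *Acadvl* at chr11:70015429-70015678 on the minus strand, both ending at the start site. The stretch between *Hadha* and *Hadhb* lies at chr5:30155163-30155247 and is written on the plus strand, the strand of *Hadhb*.
Cpt1a: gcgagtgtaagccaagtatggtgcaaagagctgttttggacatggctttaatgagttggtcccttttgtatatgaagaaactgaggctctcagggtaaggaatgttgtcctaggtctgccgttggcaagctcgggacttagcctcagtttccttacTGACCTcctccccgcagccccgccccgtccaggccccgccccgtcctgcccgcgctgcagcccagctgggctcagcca
Acadl: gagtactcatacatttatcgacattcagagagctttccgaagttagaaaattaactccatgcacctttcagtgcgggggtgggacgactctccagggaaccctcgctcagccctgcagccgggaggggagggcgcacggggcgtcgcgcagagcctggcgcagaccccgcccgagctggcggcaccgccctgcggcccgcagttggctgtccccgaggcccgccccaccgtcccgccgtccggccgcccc
Acadvl: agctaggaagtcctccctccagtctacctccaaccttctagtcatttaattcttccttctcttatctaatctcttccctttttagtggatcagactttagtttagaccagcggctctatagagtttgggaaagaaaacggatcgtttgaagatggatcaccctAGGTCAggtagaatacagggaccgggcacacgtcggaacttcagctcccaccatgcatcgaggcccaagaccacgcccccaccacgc
Hadha to Hadhb: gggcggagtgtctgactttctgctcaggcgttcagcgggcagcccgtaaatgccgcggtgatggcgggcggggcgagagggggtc

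The 4 sequences differed in base composition. The *Acadl* stretch held 68.0% G and C, the *Cpt1a* stretch 58.1% and the *Acadvl* stretch 49.6%. *Hadha* and *Hadhb* are neighbours with 0 genes between them, and 272 bases separate their RefSeq start sites, of which the 85 shown lie outside annotated exons and hold 69.4% G and C. All 9 genes had a promoter window (250 bases before to 50 after the start site) among the 32851 windows of the RefSeq table, and these were searched on both strands. AGGTCA occurred in 16.3% of all windows and in 3 of the 9, *Cpt1a*, *Acadvl* and *Acadm*. The longer element TCAAGGTCA, which contains it and is bound by estrogen-related receptors, occurred in 0.423% of all windows and 0 of the 9, and the repeat AGGTCANAGGTCA, the form bound by PPAR and RXR, in 0.0396% of all windows and 0 of the 9. The E-box CACGTG occurred in 7.15% of windows and 0 of the 9, the hypoxia response core ACGTG, which every E-box of that form also holds, in 19.6% of windows and in *Acadvl*, and the ETS core CCGGAAG in 8.86% of windows and in *Cpt2* and *Slc25a20*. These matches describe the letters of a window and not binding.

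Values are FPKM, fragment numbers adjusted for transcript length and library depth, as the authors deposited them, so levels can be set side by side between genes per length. Fold changes are differences of mean log2(FPKM + 1), DADA minus DMSO, from limma over the 10666 genes with at least 1 FPKM in at least 4 of the 8 libraries, and a gene is called at a Benjamini-Hochberg adjusted p under 0.05. Single values were also compared by exact permutation of the library labels (two-sided, 70 possible splits), for which 0.0286 is the lowest p that can occur. FPKM tables carry no read counts. From the steps between low values, the depth was estimated at 13660000 to 16420000 fragments per DMSO library and 15120000 to 18660000 per DADA library, with 41.6 to 47.2% of low values within 0.1 of a whole number, too few for a count test. Of the markers of CD8 T cells, 5 of 6 were in the table, *Cd8a*, *Cd8b1*, *Cd3d*, *Cd3e* and *Cd3g*, and their summed level was 673.8 to 680.1 FPKM with DMSO and 776.3 to 805.4 FPKM with DADA. *Cd8a* rose from 126.3 ± 1.93 to 154.0 ± 5.44 FPKM (SD, n = 4 each). Summed levels of other cell types' markers were 16.26 to 17.4 FPKM with DMSO against 15.28 to 15.76 with DADA for 4 CD4 T cell genes, of which *Zbtb7b* alone passed 1 FPKM, 2.59 to 3.56 against 2.36 to 3.09 for 6 B cell genes (*Cd79b* alone above 1 FPKM, *Pax5* at 0), and 7.15 to 8.36 against 9.44 to 10.54 for 5 stromal or endothelial genes, of which *Pecam1* alone passed 1 FPKM and *Cdh5* was at 0. The sums of 8 myeloid, 4 NK and 6 erythroid genes reached at most 0.426 FPKM in any library, with *Csf1r*, *Adgre1* and *Hbb-bs* at 0. The part of the marker levels in the differences below was not tested, and in bulk samples fewer cells of a type and less RNA per cell cannot be told apart.

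Of the 9 genes, 5 were higher with DADA (*Cpt1a*, *Acadl*, *Acadvl*, *Slc25a20* and *Acadm*), 3 were lower (*Hadhb*, *Etfa* and *Hadha*) and *Cpt2* was not called. DADA changed a large share of the transcriptome. Across all genes tested 66.2% were called, 30.9% higher and 35.3% lower, so 8 calls among 9 genes, 88.9%, stand beside a background of 66.2%. That margin was not stable, since without DMSO replicate 2 there were 5 calls among the 9 (55.6%) beside 63.5% of all genes, and with each library rescaled to the same total 6 (66.7%) beside 65.5%. The groups did not overlap for 6 of the 9 genes, 4 with every DADA library above every DMSO library and 2 with every DADA library below, beside 60.6% of all genes tested. The median log2 fold change of the 9 was 0.13, against -0.02 over all genes tested. Fold changes ran from -0.35 for *Hadhb* to 0.70 for *Cpt1a*, and the coefficient of variation within a group ran from 1.78% to 9.93%. All rows summed to 450473 to 456939 FPKM in the DMSO libraries and to 438299 to 449480 FPKM in the DADA libraries. The highest DADA total lay below the lowest DMSO total. The split of higher to lower calls depended on scaling. It was 5 to 3 in the deposited FPKM, 5 to 2 with median-ratio scaling, and 5 to 1 both with each library rescaled to the same total (TPM) and with quantile normalization. The summed level of the 9 genes lay between 292.3 and 302.5 FPKM in the DMSO libraries and between 331.2 and 337.2 FPKM in the DADA libraries, with *Acadl* giving the largest single increase in FPKM.

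**Figure D1:**
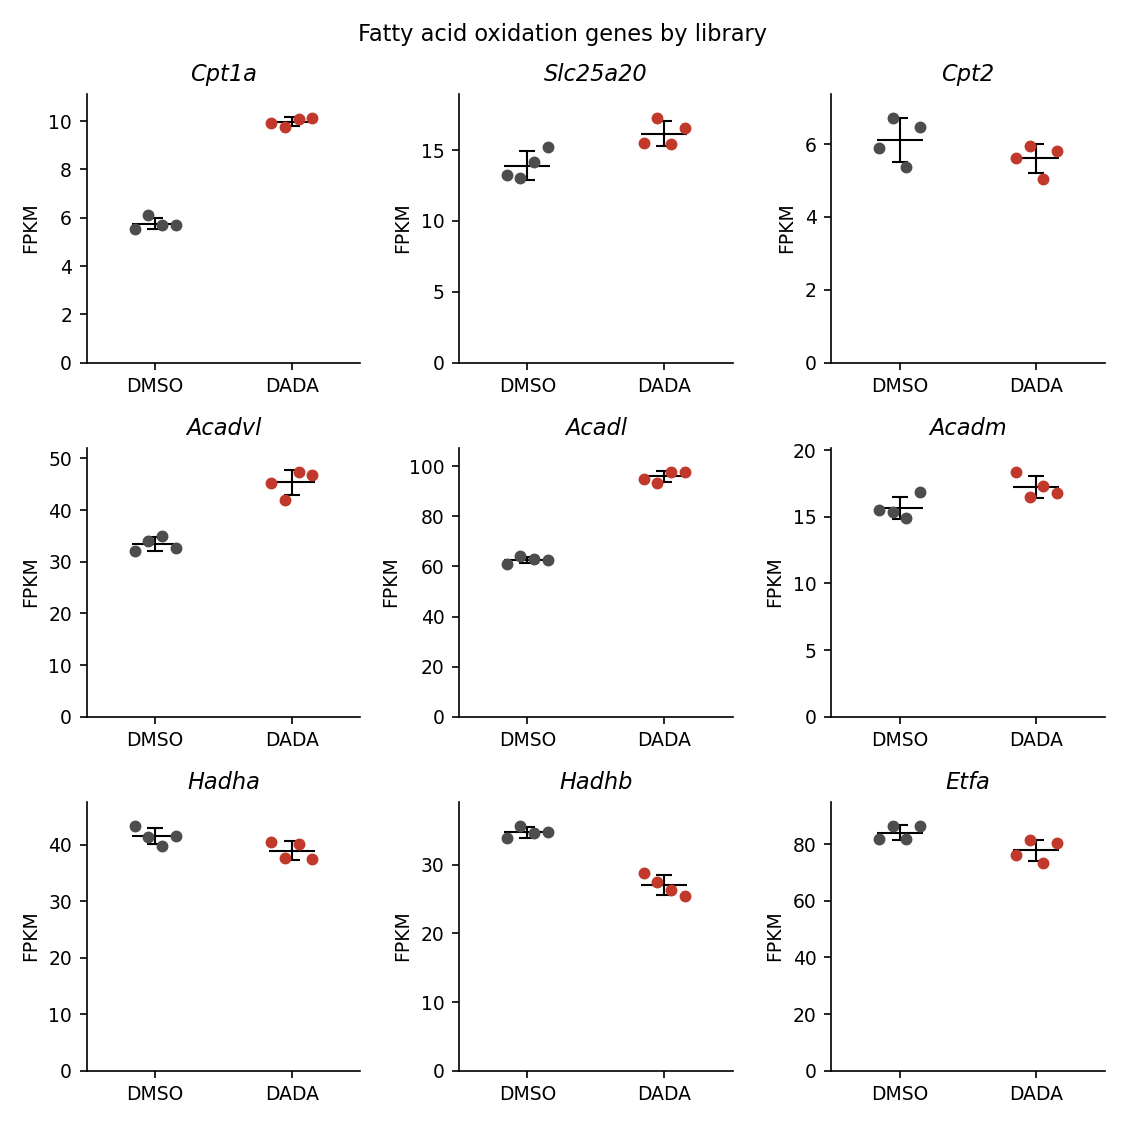
FPKM of each of the 9 genes (y axis, from 0, with its own scale in each panel) in the 4 DMSO libraries (grey points) and the 4 DADA libraries (red points), with black lines for the mean and bars for ± 1 SD. The groups are apart for *Cpt1a*, *Slc25a20*, *Acadvl* and *Acadl*, with DADA higher, and for *Hadhb* and *Etfa*, with DADA lower, and they overlap for *Cpt2*, *Acadm* and *Hadha*.

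The carnitine shuttle genes moved unevenly. *Cpt1a* (ENSMUSG00000024900) encodes the step that controls entry of long-chain fatty acids. Its level was 5.53, 6.10, 5.71 and 5.70 FPKM in DMSO replicates 1 to 4 and 9.92, 9.75, 10.1 and 10.13 FPKM in DADA replicates 1 to 4. The groups lay far apart compared with their spread. The mean rose 1.73-fold, from 5.76 ± 0.243 to 9.98 ± 0.178 FPKM (SD, n = 4 each), with a log2 fold change of 0.70 (SE 0.0393, 95% interval 0.61 to 0.79, limma adjusted p = 1.54e-07, exact permutation p = 0.0286). Of the genes tested, 682 had a larger positive fold change. The muscle and brain isoforms *Cpt1b* and *Cpt1c*, which catalyse or resemble the same step, were below the filter, *Cpt1b* averaging 0.321 ± 0.167 FPKM in DMSO and 0.257 ± 0.139 FPKM in DADA, and *Cpt1c* averaging 0.234 ± 0.0391 and 0.488 ± 0.0638 FPKM (SD, n = 4 each). *Cpt1a* was thus the *Cpt1* gene with the highest level in every library of either group.

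*Slc25a20* (ENSMUSG00000032602), the carnitine-acylcarnitine translocase, rose less. It measured 13.25, 13.0, 14.15 and 15.21 FPKM with DMSO and 15.48, 17.26, 15.39 and 16.52 FPKM with DADA. Every DADA library lay above every DMSO library, although the highest DMSO value and the lowest DADA value were close. The mean went from 13.9 ± 1.00 to 16.2 ± 0.895 FPKM (SD, n = 4 each), a log2 fold change of 0.20 (SE 0.0546, 95% interval 0.08 to 0.33, limma adjusted p = 0.00761, exact permutation p = 0.0286).

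*Cpt2* (ENSMUSG00000028607), the inner membrane transferase that closes the shuttle, was not called. Its level was 5.89, 6.72, 5.36 and 6.46 FPKM with DMSO and 5.61, 5.95, 5.04 and 5.82 FPKM with DADA. The groups overlapped, and its DMSO libraries had the widest relative spread of the 9 genes, 9.93%. The log2 fold change was -0.10 (SE 0.0699, 95% interval -0.26 to 0.05, limma adjusted p = 0.216, exact permutation p = 0.229), so a modest decrease lies within the interval, and an increase of the size seen for *Cpt1a* does not.

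The transferases of the outer and inner membrane overlapped in level in DMSO and parted with DADA. The ratio of *Cpt2* to *Cpt1a* within a library was 1.06 ± 0.0846 with DMSO and 0.562 ± 0.0465 with DADA (SD, n = 4 each), a difference of -0.91 on the log2 scale (two-sided exact permutation p = 0.0286, and 0.0286 after Benjamini-Hochberg adjustment over the 6 gene pairs compared). The ratio of *Slc25a20* to *Cpt1a* was 2.42 ± 0.223 with DMSO and 1.62 ± 0.109 with DADA, a difference of -0.57 on the log2 scale with the same exact permutation p of 0.0286 (n = 4 each). Such ratios do not depend on the scaling of a library. They reuse the FPKM values of the single genes, so their p-values are not separate evidence. The 6 pairs were chosen with earlier results of these data known. Each had the lowest exact permutation p that can occur, so the adjustment left it unchanged.

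The acyl-CoA dehydrogenase genes that act on the longer chains rose more than the medium-chain gene. *Acadl* (ENSMUSG00000026003), the long-chain enzyme, measured 60.86, 64.0, 63.07 and 62.4 FPKM with DMSO and 94.97, 93.36, 97.77 and 97.75 FPKM with DADA. The gap between the groups was many times the spread within them. The mean rose 1.53-fold, from 62.6 ± 1.32 to 96.0 ± 2.18 FPKM (SD, n = 4 each), with a log2 fold change of 0.61 (SE 0.0251, 95% interval 0.55 to 0.66, limma adjusted p = 1.73e-08, exact permutation p = 0.0286). *Acadl* took the place of *Etfa* as the gene with the highest level of the 9.

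*Acadvl* (ENSMUSG00000018574), the very long-chain enzyme of the inner membrane, measured 32.13, 33.93, 35.02 and 32.68 FPKM with DMSO and 45.27, 41.99, 47.38 and 46.81 FPKM with DADA. Every DADA library lay above every DMSO library. The mean rose 1.36-fold, from 33.4 ± 1.295 to 45.4 ± 2.42 FPKM (SD, n = 4 each), with a log2 fold change of 0.43 (SE 0.0422, 95% interval 0.33 to 0.52, limma adjusted p = 9.74e-06, exact permutation p = 0.0286). Exons of *Acadvl* overlap exons of *Dvl2* on the opposite strand by up to 377 bases, and the sources name different library kits, so reads of the overlap may not be told apart. *Dvl2* measured 7.73 ± 0.556 FPKM with DMSO and 8.62 ± 0.866 FPKM with DADA (SD, n = 4 each; log2 fold change 0.14, limma adjusted p = 0.105), and its part in the *Acadvl* value was not tested.

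*Acadm* (ENSMUSG00000062908), the medium-chain enzyme, had a small increase that single libraries decided. It measured 15.54, 15.36, 14.87 and 16.86 FPKM with DMSO and 18.36, 16.48, 17.30 and 16.76 FPKM with DADA. DMSO replicate 4 lay above 2 of the DADA libraries, so the groups overlapped. The mean went from 15.7 ± 0.849 to 17.2 ± 0.831 FPKM (SD, n = 4 each), with a log2 fold change of 0.13 (SE 0.046, 95% interval 0.03 to 0.23, limma adjusted p = 0.0296), while the exact permutation p was 0.0857. The limma call was lost without DMSO replicate 1, 2 or 3 (adjusted p = 0.0585, 0.0678 and 0.0804) and without DADA replicate 1 or 3 (adjusted p = 0.0827 and 0.0591), within a range of 0.00826 to 0.0827 over all alternatives.

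Within a library, the 3 dehydrogenase genes changed their proportions. The ratio of *Acadm* to *Acadvl* was 0.469 ± 0.0394 with DMSO and 0.380 ± 0.0225 with DADA, and the ratio of *Acadl* to *Acadvl* was 1.87 ± 0.0487 and 2.12 ± 0.0716 (SD, n = 4 each). The differences on the log2 scale were -0.30 and 0.18, each with an exact permutation p of 0.0286 (n = 4 each). The groups did not overlap in either ratio, so the long-chain gene gained on the very long-chain gene and the medium-chain gene fell back from it.

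The genes for the trifunctional protein went the other way, and unequally. *Hadhb* (ENSMUSG00000059447), the thiolase subunit, measured 33.88, 35.67, 34.60 and 34.74 FPKM with DMSO and 28.88, 27.44, 26.28 and 25.52 FPKM with DADA. Every DADA library lay below every DMSO library. The mean fell by 22.2%, from 34.7 ± 0.738 to 27.0 ± 1.47 FPKM (SD, n = 4 each), with a log2 fold change of -0.35 (SE 0.0383, 95% interval -0.44 to -0.27, limma adjusted p = 2.08e-05, exact permutation p = 0.0286).

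*Hadha* (ENSMUSG00000025745), the subunit with hydratase and dehydrogenase activity, sat at the threshold. It measured 43.28, 41.32, 39.79 and 41.55 FPKM with DMSO and 40.45, 37.59, 40.17 and 37.42 FPKM with DADA. The groups overlapped, since DADA replicates 1 and 3 lay above DMSO replicate 3. The mean went from 41.5 ± 1.43 to 38.9 ± 1.63 FPKM (SD, n = 4 each), with a log2 fold change of -0.09 (SE 0.0362, 95% interval -0.17 to -0.01, limma adjusted p = 0.0485, exact permutation p = 0.0857). The call was lost in 11 of 17 alternatives, with an adjusted p between 0.0294 and 0.215 over all of them. These included each library rescaled to the same total (0.204), quantile normalization (0.215), and leaving out DMSO replicate 1, 2 or 4 (0.123, 0.0802 and 0.0851) or DADA replicate 2 or 4 (0.120 and 0.128). Exons of *Hadha* overlap those of *Garem2* on the opposite strand by up to 75 bases, and *Garem2* averaged 0.125 ± 0.0352 FPKM in the DMSO group and 0.122 ± 0.0257 FPKM in the DADA group (SD, n = 4 each).

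The ratio of *Hadhb* to *Hadha* in a library was 0.783, 0.863, 0.869 and 0.836 with DMSO and 0.714, 0.730, 0.654 and 0.682 with DADA. The highest DADA ratio was below the lowest DMSO ratio. The mean ratio went from 0.838 ± 0.0396 to 0.695 ± 0.0337 (SD, n = 4 each), a difference of -0.27 on the log2 scale (exact permutation p = 0.0286). The 2 genes are transcribed away from each other, with the stretch printed above between their start sites. Their transcripts changed by unequal amounts.

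**Figure D2:**
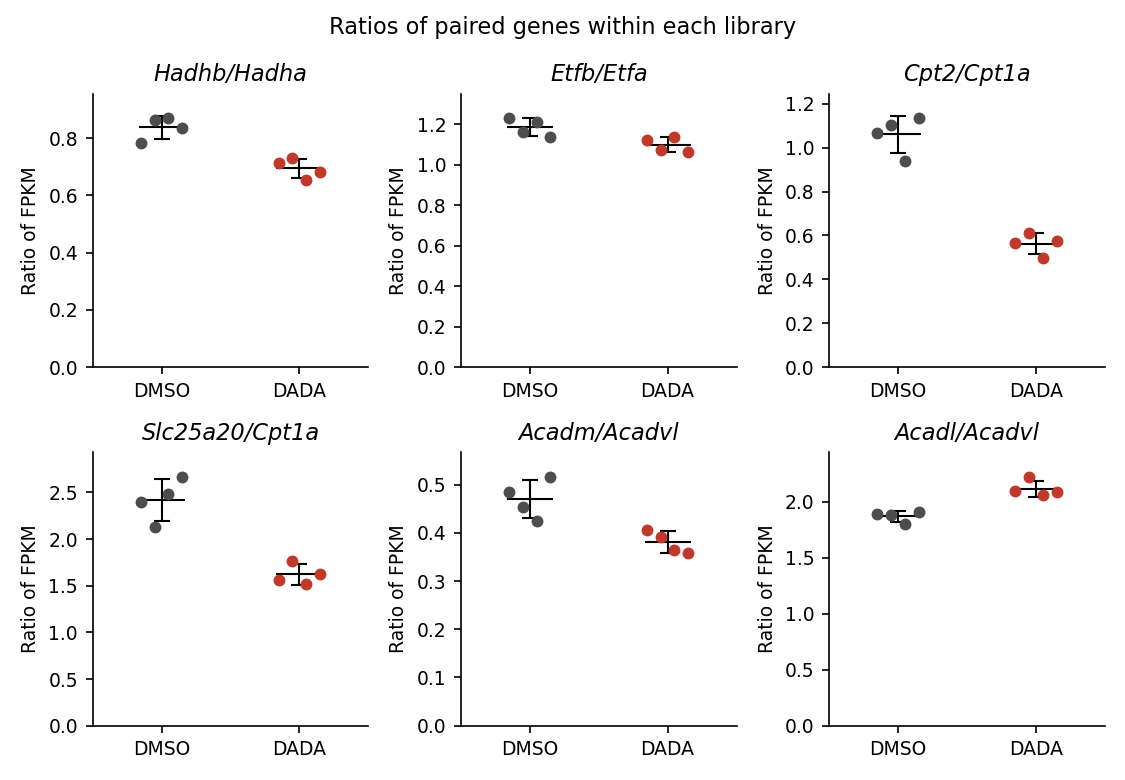
Ratio of the FPKM values of 2 genes within each library (y axis, from 0) for 6 pairs, in the 4 DMSO libraries (grey points) and the 4 DADA libraries (red points), with black lines for the mean and bars for ± 1 SD. The groups are apart in each of the 6 pairs, with the largest log2 difference, -0.91, for *Cpt2* to *Cpt1a*, which goes from 1.06 to 0.562, and with DADA above DMSO for *Acadl* to *Acadvl*. The pairs were chosen with earlier results of these data known. Of single genes tested, 60.6% had groups that did not overlap, and the share over gene pairs in general was not computed.

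The electron transfer flavoprotein genes were lower and the oxidoreductase gene was higher. *Etfa* (ENSMUSG00000032314), the alpha subunit, measured 81.95, 86.45, 81.69 and 86.30 FPKM with DMSO and 76.06, 81.40, 73.44 and 80.50 FPKM with DADA. Every DADA library lay below every DMSO library, DADA replicate 2 only just. The mean fell by 7.43%, from 84.1 ± 2.63 to 77.9 ± 3.75 FPKM (SD, n = 4 each), with a log2 fold change of -0.11 (SE 0.037, 95% interval -0.19 to -0.03, limma adjusted p = 0.0231, exact permutation p = 0.0286). The limma call was lost with each library rescaled to the same total (adjusted p = 0.0656), with quantile normalization (0.209), and without DMSO replicate 2 or 4 (0.063 and 0.0602) or DADA replicate 1 or 3 (0.0603 and 0.058), within a range of 0.00456 to 0.209 over all alternatives.

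*Etfb*, the beta subunit, measured 100.7, 100.5, 99.01 and 98.0 FPKM with DMSO and 85.36, 87.14, 83.31 and 85.61 FPKM with DADA. It fell from 99.5 ± 1.26 to 85.4 ± 1.57 FPKM (SD, n = 4 each; log2 fold change -0.22, limma adjusted p = 9.90e-06), with no overlap between the groups. The ratio of *Etfb* to *Etfa* ranged from 1.136 to 1.228 with DMSO and from 1.064 to 1.134 with DADA, so the groups were apart by a narrow margin (log2 difference -0.11, exact permutation p = 0.0286). *Etfdh*, which takes the electrons from the flavoprotein to ubiquinone, measured 21.5, 21.76, 22.16 and 23.28 FPKM with DMSO and 28.48, 30.01, 28.05 and 28.91 FPKM with DADA. It rose from 22.2 ± 0.783 to 28.9 ± 0.841 FPKM (SD, n = 4 each; log2 fold change 0.37, limma adjusted p = 5.66e-06).

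The order of the 9 levels, per length, was *Etfa*, *Acadl*, *Hadha*, *Hadhb*, *Acadvl*, *Acadm*, *Slc25a20*, *Cpt2* and *Cpt1a* in DMSO, from 84.1 to 5.76 FPKM. Neighbours overlapped in their DMSO values for *Hadhb* and *Acadvl*, for *Acadm* and *Slc25a20*, and for *Cpt2* and *Cpt1a*. In DADA the order was *Acadl*, *Etfa*, *Acadvl*, *Hadha*, *Hadhb*, *Acadm*, *Slc25a20*, *Cpt1a* and *Cpt2*, and *Acadm* and *Slc25a20* were the neighbours that still overlapped. In DMSO the 3 shuttle genes took the lowest places, and they did so in DADA as well.

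Other genes in and around mitochondrial beta-oxidation changed in both directions. Of 22 genes, all 22 were tested, 4 were higher, 10 were lower and 8 were not called, with a median log2 fold change of -0.11. These 14 calls stand beside 66.2% called over all genes tested, 30.9% higher and 35.3% lower, the background for each list below as well. This list of 22 also holds genes that are not steps of beta-oxidation, for thioesterases, peroxisomal coenzyme A hydrolases and factors acting on the flavoprotein. By the naming rule (the 2 called genes with the largest change in each direction and a mean of at least 5 FPKM), the lower genes were *Acad9*, an acyl-CoA dehydrogenase also needed for complex I assembly, which fell from 13.5 ± 0.284 to 8.22 ± 0.202 FPKM, and *Acot2*, a mitochondrial acyl-CoA thioesterase, which fell from 9.98 ± 0.415 to 6.09 ± 0.361 FPKM (SD, n = 4 each; log2 fold changes -0.66 and -0.63, limma adjusted p = 7.90e-08 and 1.40e-06). The higher genes were *Etfdh* and *Acot9*, another thioesterase, which rose from 43.5 ± 1.90 to 55.4 ± 2.10 FPKM (SD, n = 4 each; log2 fold change 0.34, limma adjusted p = 2.27e-05). A further 5 genes were named after their values were seen. *Echs1*, the short-chain hydratase, had a log2 fold change of -0.51, *Hadh*, the dehydrogenase of the next step, -0.26, and *Acat1*, a thiolase, -0.35 (limma adjusted p = 1.87e-07, 0.000184 and 8.06e-06), while *Acads*, the short-chain dehydrogenase, at 0.01 and *Acaa2*, a thiolase, at -0.03 were not called (limma adjusted p = 0.873 and 0.710).

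**Figure D3:**
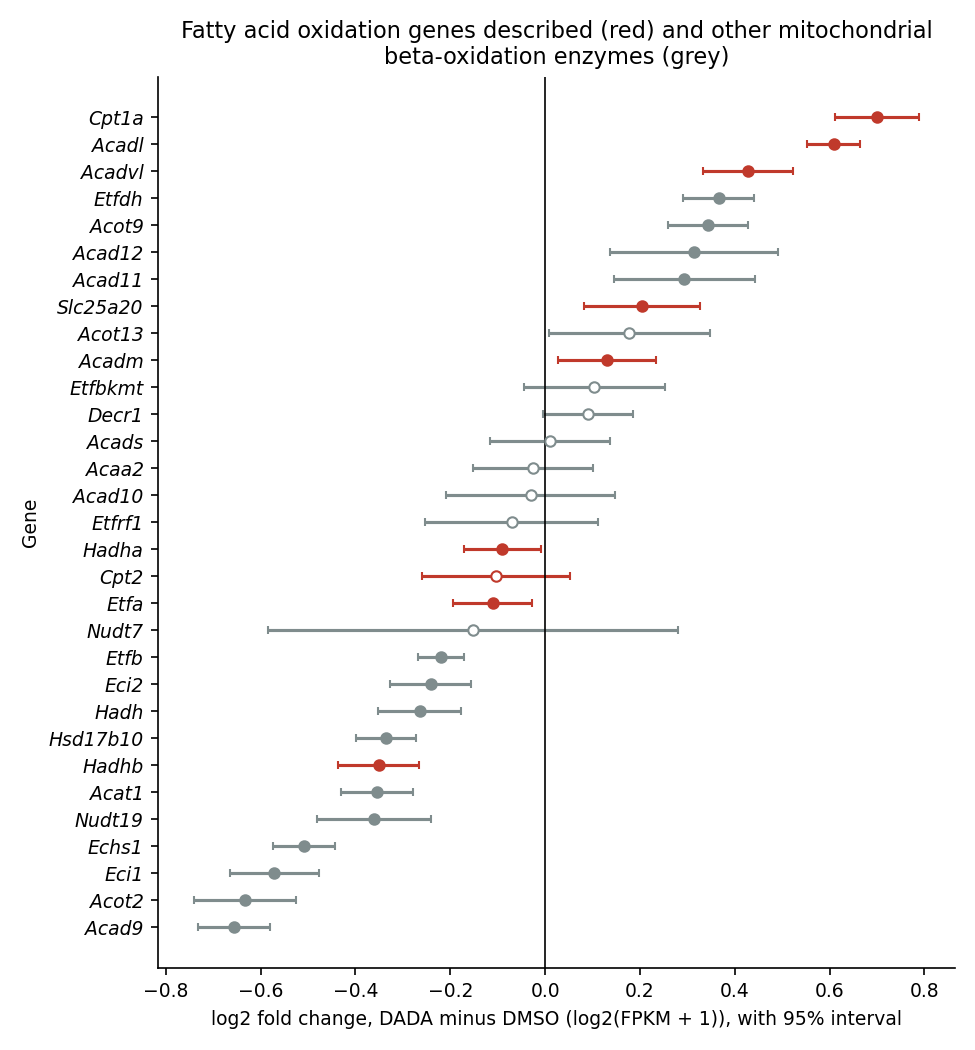
Log2 fold change, DADA minus DMSO, on the log2(FPKM + 1) scale (x axis) for the 9 genes described (red) and 22 other genes in and around mitochondrial beta-oxidation (grey), sorted by size, with 95% intervals from limma as bars. Filled points have an adjusted p under 0.05, and the range runs from -0.66 for *Acad9* to 0.70 for *Cpt1a*, with *Cpt1a*, *Acadl* and *Acadvl* the 3 highest.

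Genes that bring fatty acids to the pathway were split. Of 19 genes for uptake, binding and activation, 12 were tested, 3 were higher, 4 were lower and 5 were not called (median log2 fold change 0.01). *Slc27a4*, a fatty acid transport protein, rose from 3.22 ± 0.174 to 7.08 ± 0.299 FPKM and *Acsl3*, a long-chain acyl-CoA synthetase, from 11.9 ± 0.607 to 15.5 ± 0.538 FPKM (SD, n = 4 each; log2 fold changes 0.94 and 0.36, limma adjusted p = 8.74e-08 and 3.12e-05). *Acsl5*, another synthetase, fell from 81.6 ± 0.893 to 53.0 ± 1.45 FPKM and *Fabp5*, a fatty acid binding protein, from 80.1 ± 2.27 to 57.2 ± 1.49 FPKM (SD, n = 4 each; log2 fold changes -0.61 and -0.48, limma adjusted p = 1.52e-08 and 2.19e-07). The remaining called genes, outside the naming rule, were *Slc27a1* (log2 fold change 0.81), *Cd36* (-1.28) and *Dbi* (-0.12). The call of *Dbi* (limma adjusted p = 0.0268) was lost with each library rescaled to the same total (0.0601), with quantile normalization (0.120), and without DMSO replicate 1 or 2 (0.0514 and 0.071) or DADA replicate 1 or 3 (0.0652 and 0.0541), within a range of 0.0112 to 0.120 over all alternatives.

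Of 9 other genes for carnitine handling, 8 were in the table and 4 were tested, with 1 higher, 2 lower and 1 not called (median log2 fold change -0.12). *Crot*, the peroxisomal carnitine octanoyltransferase, fell from 20.4 ± 0.709 to 16.2 ± 0.870 FPKM, and *Slc22a5*, the carnitine importer of the plasma membrane, from 6.26 ± 0.376 to 5.29 ± 0.280 FPKM (SD, n = 4 each; log2 fold changes -0.31 and -0.21, limma adjusted p = 0.000104 and 0.00564). The higher gene, outside the naming rule, was *Crat*, carnitine acetyltransferase (log2 fold change 0.49). Oxidation of odd-chain and branched-chain acyl-CoA was the list with the largest share of lower genes, 11 of 16 tested, with 2 higher, 3 not called and a median log2 fold change of -0.24. Over all genes tested, 35.3% were lower and 66.2% were called. *Hibch* and *Pcca*, which act in valine and propionyl-CoA breakdown, fell from 19.6 ± 0.739 to 13.3 ± 0.694 FPKM and from 18.4 ± 0.757 to 12.9 ± 0.523 FPKM, while *Bckdha*, a subunit of the branched-chain keto acid dehydrogenase, rose from 5.89 ± 0.342 to 10.8 ± 0.971 FPKM and *Auh*, of leucine breakdown, from 19.7 ± 0.470 to 25.8 ± 1.92 FPKM (SD, n = 4 each; limma adjusted p = 2.05e-06, 2.87e-06, 2.63e-06 and 7.45e-05).

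In the list for peroxisomal fatty acid oxidation, 5 were higher, 5 were lower and 5 were not called of 15 tested among 18 (median log2 fold change 0.02). The list holds *Abcd4*, whose product is a cobalamin transporter of the lysosome and endoplasmic reticulum, and without it 4 were higher, 5 were lower and 5 were not called (median log2 fold change -0.01). *Pecr*, an enoyl-CoA reductase, fell from 10.2 ± 0.541 to 4.63 ± 0.419 FPKM and *Abcd3*, a transporter, from 23.4 ± 0.819 to 18.6 ± 0.874 FPKM (SD, n = 4 each; limma adjusted p = 2.77e-07 and 5.67e-05). *Hacl1*, of alpha-oxidation, rose from 4.33 ± 0.155 to 5.78 ± 0.527 FPKM and *Abcd4* from 6.17 ± 0.330 to 7.95 ± 0.265 FPKM (SD, n = 4 each; limma adjusted p = 0.000619 and 0.00014).

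Among 25 regulators, 20 were tested, 8 were higher, 4 were lower and 8 were not called (median log2 fold change 0.05). *Acaca*, the carboxylase that makes malonyl-CoA, fell from 21.9 ± 0.580 to 14.2 ± 0.201 FPKM, and *Pprc1*, a coactivator of the PGC-1 family, from 27.6 ± 0.701 to 20.6 ± 0.271 FPKM (SD, n = 4 each; log2 fold changes -0.59 and -0.41, limma adjusted p = 7.34e-08 and 6.11e-07). *Lpin1*, a phosphatidate phosphatase and coregulator, rose from 8.43 ± 0.450 to 13.6 ± 0.450 FPKM, and the transcription factor *Foxo1* from 8.19 ± 0.168 to 13.2 ± 0.352 FPKM (SD, n = 4 each; log2 fold changes 0.64 and 0.62, limma adjusted p = 6.30e-07 and 1.30e-07). The nuclear receptor genes of the list are named outside the rule, after their values were seen. *Pparg* rose from 3.78 ± 0.160 to 5.91 ± 0.332 FPKM, *Ppard* from 6.63 ± 0.203 to 7.74 ± 0.454 FPKM and *Esrra*, an estrogen-related receptor, from 8.07 ± 0.291 to 10.4 ± 0.539 FPKM (SD, n = 4 each; log2 fold changes 0.53, 0.20 and 0.33, limma adjusted p = 7.09e-06, 0.00399 and 0.000112), with no overlap between the groups in any of the 3. *Rxrb* rose from 22.9 ± 0.807 to 25.5 ± 1.81 FPKM, with overlapping groups (SD, n = 4 each; log2 fold change 0.15, limma adjusted p = 0.023). *Rxra* went the other way, from 0.992 ± 0.165 to 0.662 ± 0.0661 FPKM (SD, n = 4 each). Every DADA library lay below every DMSO library for *Rxra*, which was below the filter and so not called. *Ppara*, the receptor that drives this pathway in liver, was listed at 0 in DMSO and averaged 0.0279 FPKM in DADA, and the coactivator gene *Ppargc1a* was listed at 0 in all 8 libraries. Of 10 PPAR target genes outside beta-oxidation 4 were tested, and *Plin2*, a lipid droplet coat protein, rose from 16.5 ± 0.668 to 34.8 ± 0.982 FPKM, *Ucp2*, a mitochondrial carrier, fell from 78.1 ± 2.83 to 62.6 ± 1.47 FPKM, and 2 were not called (SD, n = 4 each; limma adjusted p = 4.10e-09 and 8.42e-06, median log2 fold change -0.13).

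Genes of lipolysis and lipid droplets held the largest changes around the pathway. Of 12 genes 9 were tested, 4 were higher, 2 were lower and 3 were not called (median log2 fold change 0.09). The higher genes include *Plin2*, which this list shares with the PPAR target genes. *Hilpda*, a lipid droplet protein that inhibits lipolysis and is known to be induced by hypoxia, measured 9.08, 8.69, 6.80 and 9.01 FPKM with DMSO and 117.7, 114.9, 109.8 and 111.8 FPKM with DADA. It rose from 8.40 ± 1.08 to 113.6 ± 3.44 FPKM (SD, n = 4 each; log2 fold change 3.62, limma adjusted p = 1.05e-10). *Dgat1*, which makes triglyceride, rose from 12.6 ± 0.408 to 40.9 ± 0.711 FPKM (SD, n = 4 each; log2 fold change 1.63, limma adjusted p = 5.80e-11). *Lipe*, the hormone-sensitive lipase, fell from 6.84 ± 0.600 to 5.06 ± 0.169 FPKM and *Dgat2* from 6.55 ± 0.348 to 4.93 ± 0.185 FPKM (SD, n = 4 each; log2 fold changes -0.37 and -0.35, limma adjusted p = 0.000287 and 0.000107). Over all 130 genes of these 8 lists, with *Plin2* not counted again, 101 were tested, 27 were higher, 39 were lower and 35 were not called, with a median log2 fold change of -0.03 against -0.02 over all genes tested. The 66 calls among these 101 stand beside 66.2% called over all genes tested, 30.9% higher and 35.3% lower.

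**Figure D4:**
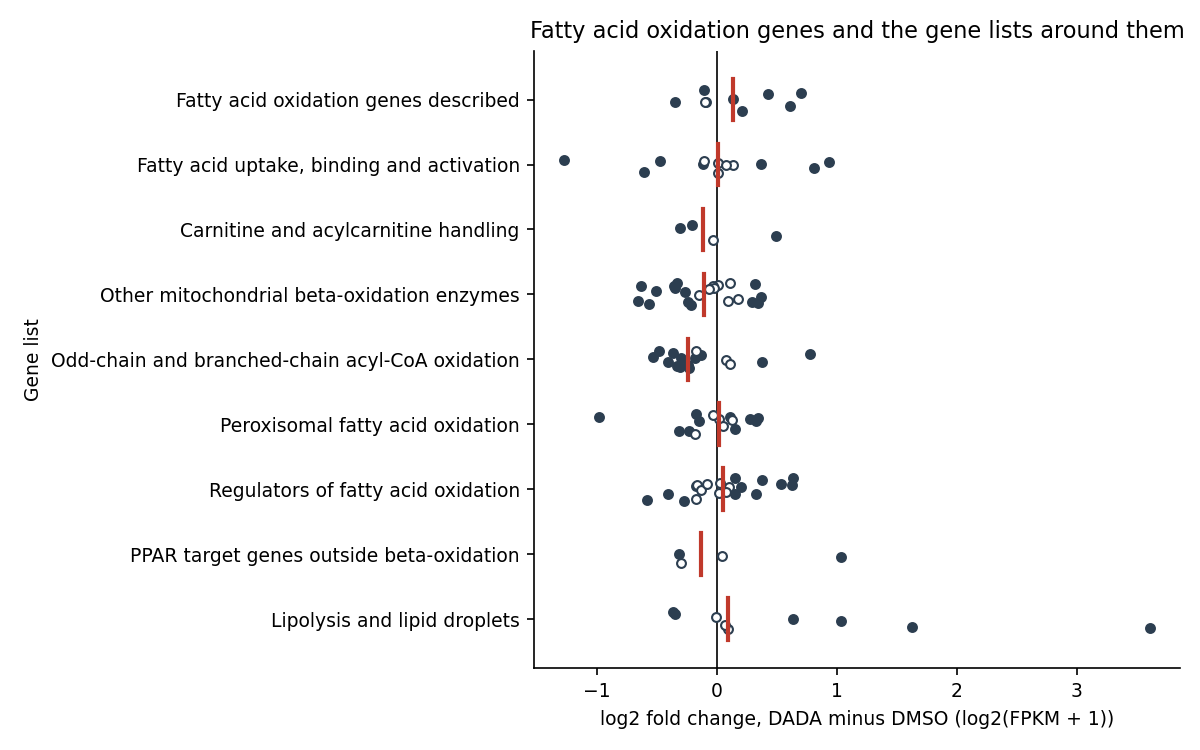
Log2 fold change, DADA minus DMSO, on the log2(FPKM + 1) scale (x axis) of each tested gene (points) in the 9 genes described and in 8 lists around them (y axis), with filled points for an adjusted p under 0.05 and red bars for list medians. Medians run from -0.24 for odd-chain and branched-chain oxidation to 0.13 for the 9 genes, and the point farthest to the right is *Hilpda* at 3.62.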

How the data were processed

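Bulk RNA-seq libraries of mouse splenic CD8+ T cells, 4 with DMSO and 4 with DADA, were assigned to groups by their titles and the treatment text. FPKM values for each gene in each library, made by the authors from paired 150-base reads, are what was deposited. The submitters' processing notes name CASAVA 1.8.2, FastQC 0.11.9, HISAT2 2.0.5, StringTie 1.3.3, Picard 1.41 and SAMtools 0.1.18 and the builds GRCm39 and GRCh38, with no role given. The labels and the paper name different library kits, so strand handling is unclear. Of 22520 rows, 404 are assembled transcripts and 6353 are 0 in every library. The annotation used here, GENCODE M21, is of another build (GRCm38), so gene coordinates are not given, and upstream sequences are from RefSeq on GRCm38.p6.

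Log2(FPKM + 1) values of genes with at least 1 FPKM in at least 4 libraries were fitted with limma 3.58.1 in R 4.3.3 (lmFit with a group term, eBayes with a mean-variance trend, Benjamini-Hochberg adjustment over 10666 genes). The log2 scale with a pseudocount of 1 understates the change of low genes. The fit was tested on simulated data. Single values and 6 within-library gene ratios were compared by two-sided exact permutation tests, over libraries. Python 3.11.15, numpy 2.4.6, pandas 2.3.3, scipy 1.17.1 and matplotlib 3.10.9 were used. The 9 genes, the 8 lists around them, the 6 pairs and the markers were chosen with earlier results of these data known. The rule for naming genes outside the 9 took, from each list, the 2 called genes with the largest fold change in each direction and a mean of at least 5 FPKM, plus *Etfb* and *Etfdh*, and defining CD8 markers. Further genes were named outside this rule, in part after their values were seen. Some marker genes are not reported here one by one. Alternatives were another pseudocount, filters, scalings, no trend, a replicate block and leaving out each library.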

Additional observations from a re-analysis of the deposited data

Results flagged for a closer look

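In 3 of the 116 groups of 4 libraries examined, 1 library stood apart from the other 3 by Dixon's ratio, where chance gives about 1 in 20 groups, or 5.8. For *Hadh* it was DADA replicate 2 at 25.8 FPKM, above 22.9 to 23.3 in the other DADA libraries (ratio 0.847). For *Acads* it was DADA replicate 3 at 20.2 FPKM, above 18.9 to 19.0 (ratio 0.875). For *Crat* it was DADA replicate 1 at 2.14 FPKM, below 2.40 to 2.41 (ratio 0.942). The calls of *Hadh* and *Crat* held without those libraries, and *Acads* was not called with or without its own. The 9 genes had no such library.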

How the results depend on the processing

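Changes of filter, no mean-variance trend, the replicate block and leaving out assembled transcripts do not alter a gene's fold change. They can move its call but not its direction. No value of the 9 genes changed direction in 153 alternatives (17 for each gene), and 131 kept their side of the threshold. The other 22 lost the call, 11 for *Hadha*, 6 for *Etfa* and 5 for *Acadm*, and the values are given with those genes. The naming rule favours called genes with large fold changes, so their calls are stable in part by selection. The 29 other genes that it selects kept direction and side in all 493 alternatives. Of 234 alternatives for 14 genes named outside the rule, not counting *Rxrb*, *Rxra*, *Acacb* and *Mlycd*, 223 kept both, and 6 lost the call of *Dbi*. The other 5 turned the sign of uncalled values near 0. *Acads* (0.01 as reported) ranged from -0.0412 to 0.0574 with a library left out, and *Acaa2* (-0.03 as reported) from -0.0619 to 0.0248, and was 0.0056 with TPM. The 8 calls among the 9 genes became 7 without the filter on low values, with median-ratio scaling or without the mean-variance trend, 6 with TPM or quantile normalization, and 5 to 7 when a library was left out, with 5 without DMSO replicate 2. Calls over all genes, 7064 as reported, ranged from 5741 (mean of at least 5 FPKM) to 7868 (no filter), and from 6700 to 6848 with a library left out. Calls in the 8 lists, 66 as reported, ranged from 58 to 73, and from 63 to 67 with a library left out. Leaving out the assembled transcripts, chosen after seeing the data, gave 7020 calls over all genes and 8 among the 9. The share of calls that were higher moved, among the 9 genes, from 62.5% to 83.3% (TPM, quantile) and 71.4% (median ratio), and over all genes from 46.7% to 51.6%, 42.2% and 47.4%. Same-numbered libraries did not deviate together (correlations 0.0953, -0.12, -0.0877 and 0.0751, and no DMSO library correlated best with its own number). Weak correlations cannot decide whether same-numbered libraries share an animal or a cell preparation, and nothing used here states it. With the replicate number as a block, 6995 genes and 7 of the 9 genes were called, and the adjusted p of *Hadha* was 0.0504. All 6 gene ratios kept their direction and, with FPKM + 1, their side. With a library left out the smallest exact p that permutations allow is 0.0571, and with the replicate block it is 0.125, so neither can pass the threshold. The precision of a value is limited by 4 libraries per group. The depth is only estimated, and no fit or test here used the estimate.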
